A study of Mus musculus with 15 samples.

Results

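The comparison set cells marked by Wap-Cre in the virgin mouse mammary gland against the mature luminal cells of the virgin gland. The marked cells, called alveolar luminal stem/progenitor cells (ALP) by their labels, were lineage-negative cells positive for yellow fluorescent protein (YFP) from adult virgin Wap-Cre;R26Y females on a C57BL/6 background. The mature luminal cells (ML) were lineage-negative, CD24hi, CD29+ and CD61- cells from adult virgin wildtype C57BL/6 females, and were sorted from 3 cell suspensions. In Wap-Cre;R26Y mice Cre is driven by the promoter of Wap, the gene of the milk protein whey acidic protein, and Cre recombination switches on the R26Y reporter, so YFP marks cells with past or present Cre activity and their descendants. The ALP gate, as described for this series, used YFP and the lineage antigens, whereas the ML gate used CD24, CD29 and CD61. The arrays were chosen by their titles, and 3 ALP and 3 ML arrays entered the comparison out of 15 arrays of 5 populations. The other 9 arrays, of basal cells (MaSC), luminal progenitors (LP) and alveolar cells of midgestation (AL), served to estimate the spread. Whether the ALP replicates came from separate animals is not given in the sources used here, so p-values measure the spread between these samples, which may be technical.

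The luminal layer of the mammary gland holds cells of distinct roles. Mature ductal cells carry the estrogen and progesterone receptors and pass hormone signals on to their neighbours through secreted factors, and most of them do not divide. Alveolar progenitors lack these receptors for the most part, express Elf5, Kit and CD61, and expand under prolactin, Stat5 and RANK signalling in pregnancy to form the alveoli that secrete milk. Wap itself is a late marker of this secretory programme, and the virgin gland expresses little of it.

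Each array gave 1 intensity per probe set on a linear scale, and 12143 genes were tested with 1 probe set each. The median intensity of the array was 162, 180 and 209.9 in ALP, against 137 and 139 as the lowest and highest in ML. Across genes, ALP replicates 1 and 2 correlated at a Pearson's r of 0.970, ALP replicate 3 at 0.902 and 0.916 with the other two, and the ML arrays with each other at 0.979 to 0.983. ALP replicates 1 and 2 correlated with ML arrays at 0.817 to 0.871 and ALP replicate 3 at 0.719 to 0.744. Genes are not independent replicates, and these values are descriptions. The ALP arrays carry later sample numbers than the others, so a batch of arrays and the ALP population cannot be told apart.

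The label was first checked against markers. The 18 genes of the luminal keratin and identity list averaged 12.51, 12.55 and 12.39 log2 intensity in the ALP arrays, against 12.39, 12.41 and 12.45 in the ML arrays. Krt8 and Krt18, the keratins of simple epithelia, and Epcam, an epithelial adhesion molecule, were bright in all 6 arrays. Epcam was measured at 13986, 14007 and 13027 in ALP arrays, against 13128, 13689 and 13964 in ML arrays, and the log2 difference was 0.0081 (adjusted p = 0.935). The groups overlapped, so ALP arrays carried an epithelial signal as bright as that of ML arrays. The list averaged 12.19, 11.82 and 11.59 in basal MaSC arrays, below every ALP and ML array, and 12.48, 12.55 and 12.56 in LP arrays. Krt18, Krt8 and Epcam averaged 15436, 13523 and 12078 in MaSC arrays, so they were bright there too. The brightness of these genes in ALP therefore does not tell luminal from basal cells, and purity cannot be read from it.

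Markers of other cell types stood beside this epithelial signal in the ALP arrays. The 21 fibroblast markers averaged 11.36, 11.57 and 13.06 log2 intensity in ALP, against 5.97, 5.41 and 6.05 in ML. All 3 ALP arrays lay above all ML arrays, and ALP replicate 3 was the highest. The same list averaged 11.68, 11.59 and 10.95 in LP arrays and 11.01, 10.89 and 10.46 in AL arrays. In MaSC arrays it averaged 9.027, 8.69 and 8.998. The fibroblast signal was thus not peculiar to ALP, and ML had the lowest values of the 5 populations. The 17 endothelial markers averaged 7.87, 8.74 and 10.83 in ALP, against 5.98, 5.93 and 5.87 in ML, again with no overlap. Here the other populations lay below ALP, with 5.622, 5.691 and 5.964 in LP, 5.625, 5.756 and 5.46 in MaSC and 7.201, 7.424 and 7.491 in AL. The 15 macrophage and myeloid markers averaged 6.49, 7.22 and 11.41 in ALP and 5.30, 5.55 and 5.38 in ML, so that ALP replicate 3 stood far above the other 2 ALP arrays. The same array led in pan-leukocyte markers (7.90, 8.42 and 11.89 in ALP, against 7.44, 7.38 and 7.16 in ML) and in T and NK cell markers (5.51, 5.83 and 9.19 in ALP, against 5.15, 5.02 and 4.89 in ML). Erythroid markers lay at 4.94, 4.88 and 4.99 in ALP and 4.35, 5.05 and 5.21 in ML, near the bottom of the scale. In bulk samples, fewer cells of a type and less RNA per cell cannot be told apart.

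**Figure D1:**
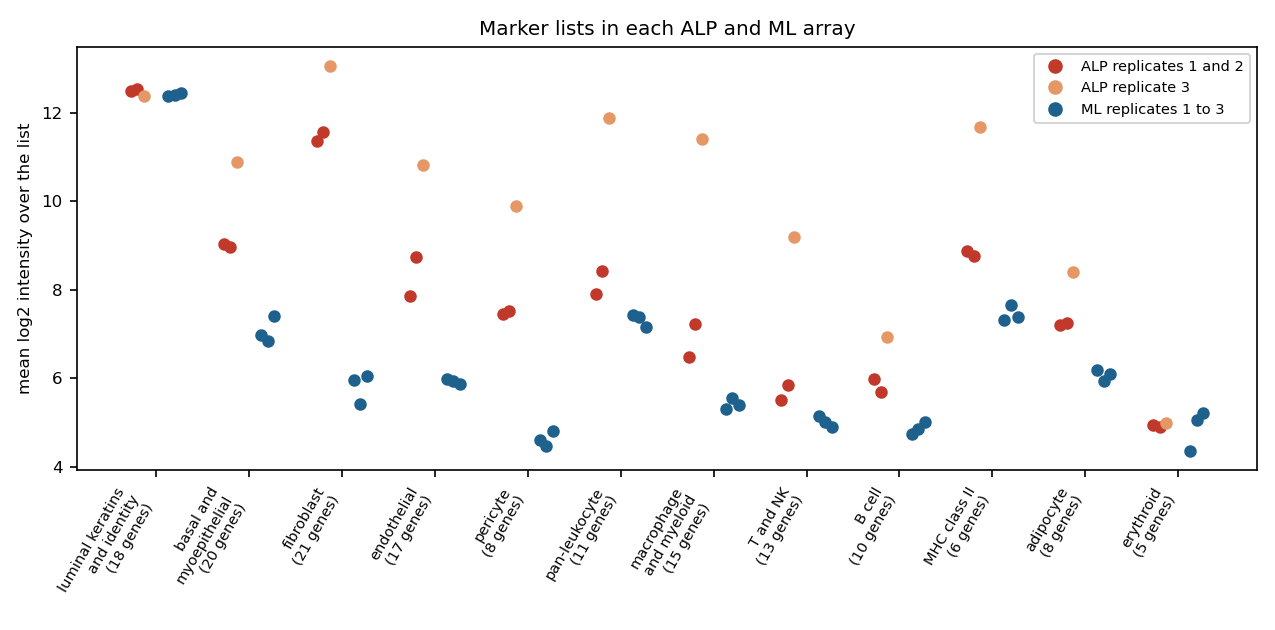
Mean log2 intensity over the genes of 12 marker lists (vertical axis) in each of the 3 ALP and 3 ML arrays, with the number of genes under each list name. Points of ALP replicates 1 and 2, ALP replicate 3 and the ML replicates are coloured separately. The luminal keratin and identity points lie at 12.51, 12.55 and 12.39 in ALP and 12.39, 12.41 and 12.45 in ML. The fibroblast points lie at 11.36, 11.57 and 13.06 in ALP and 5.97, 5.41 and 6.05 in ML. ALP replicate 3 is far the highest array in the leukocyte lists. ALP replicates 1 and 2 also lie above ML there, as in the macrophage and myeloid list (6.49 and 7.22, against 5.30, 5.55 and 5.38 in ML).

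Defining genes of these cell types were also read 1 by 1. Ptprc, which encodes the leukocyte antigen CD45, was measured at 43.3, 58.8 and 2795 in ALP arrays and at 23.7, 17.6 and 11.2 in ML arrays. Adgre1, the F4/80 antigen of macrophages, was measured at 27.6, 72 and 5053 in ALP and 5.83, 7.95 and 5.28 in ML, and Cd3e, a chain of the T cell receptor complex, at 74.2, 27.5 and 1694 in ALP and 31.3, 15.3 and 10.02 in ML. All 3 genes were below the array median in ALP replicates 1 and 2 and high in replicate 3, and none of them passed the filter on dim probe sets. Pecam1, which encodes the endothelial antigen CD31, was also too dim for the test, with 110.5, 250 and 928 in ALP and 29.4, 22.3 and 24.4 in ML. Every result below was therefore computed again without ALP replicate 3, and the part of stromal, vascular and immune transcripts in each result was not tested.

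ALP and ML differed in 4452 of 12143 genes (36.7%, limma, adjusted p under 0.05 after Benjamini-Hochberg over all genes tested), of which 2560 (21.1%) were higher and 1892 (15.6%) were lower in ALP. Genes past this threshold are said to be called, or to have risen or fallen in ALP. The shares of 21.1% and 15.6% are the background for each count of list members below with all arrays. Counts from other fits have their own background. Without ALP replicate 1, 2 or 3 in turn, 2290, 2380 and 2457 genes were higher and 1146, 1409 and 2530 were lower. Without ML replicate 1, 2 or 3 in turn, 2170, 2029 and 2299 were higher and 1266, 1130 and 1545 were lower. A fit of the 6 arrays alone called 1595 higher and 1144 lower. At 2-fold or more, 1449 genes (11.9%) were higher and 584 (4.81%) were lower. The arrays of the 2 groups did not overlap in 5953 genes (49%), with all ALP arrays above all ML arrays in 3092 (25.5%) and below them in 2861 (23.6%). Without ALP replicate 3 the fit called 4987 genes (41.1%), and 4057 of the 4452 genes were called again in the same direction. Of the 1449 genes at least 2-fold higher, 1374 remained called without replicate 3, and of the 584 at least 2-fold lower, 568 did. Replicate 3 was the ALP array farthest from ML in 978 of the 1449 higher genes and in 42 of the 584 lower genes. The balance of the calls depended on the scaling: 57.5% of calls were higher in ALP with the deposited scaling, 37.1% after quantile normalisation and 36.5% after centring each array on its median. These scalings moved the median log2 difference of all genes to -0.137 and -0.155, against -0.02 as deposited.

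Most milk protein genes were higher in ALP. Of 14 tested, 11 rose and the other 3 did not pass the test, with a median log2 difference of 2.57, and the counts were the same without ALP replicate 3. For comparison, 21.1% of all genes rose. Wap, whose promoter drove Cre, was measured at 98.6, 62.1 and 39.4 in ALP arrays, against 27.3, 20.4 and 23.7 in ML arrays. Every ALP array was above every ML array, by 2.63-fold on average (log2 difference 1.40 ± 0.35 SE, adjusted p = 0.00925), and the log2 difference was 1.73 without ALP replicate 3. All 6 intensities were below the median of their array, and AL arrays averaged 6059, so Wap transcript was dim in both virgin populations. The virgin LP arrays averaged 111 (82.5 to 146), above the ALP mean of 66.7. With 16 added to each intensity, the fold of ALP over ML was 1.99.

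The upstream sequences of Wap and of 2 casein genes are shown because Wap-Cre defines the ALP cells and because these caseins were among the most different milk genes. Each stretch is the 250 bases before the RefSeq start of the gene on build GRCm38.p6, written 5′ to 3′ on the strand of the gene, and capitals mark a match to TTCNNNGAA, the palindromic core bound by Stat5.
Wap (chr11:6638650-6638899, minus strand): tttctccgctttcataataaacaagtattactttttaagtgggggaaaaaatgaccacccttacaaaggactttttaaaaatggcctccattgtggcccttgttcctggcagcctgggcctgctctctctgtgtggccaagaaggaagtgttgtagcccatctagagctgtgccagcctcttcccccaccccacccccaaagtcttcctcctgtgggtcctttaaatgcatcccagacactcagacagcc
Csn2 (chr5:87699426-87699675, minus strand): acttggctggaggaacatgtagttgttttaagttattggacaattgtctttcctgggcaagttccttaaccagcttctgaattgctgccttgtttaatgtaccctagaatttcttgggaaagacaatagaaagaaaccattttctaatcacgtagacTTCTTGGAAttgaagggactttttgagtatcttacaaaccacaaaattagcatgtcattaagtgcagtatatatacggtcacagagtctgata
Csn1s1 (chr5:87665958-87666207, plus strand): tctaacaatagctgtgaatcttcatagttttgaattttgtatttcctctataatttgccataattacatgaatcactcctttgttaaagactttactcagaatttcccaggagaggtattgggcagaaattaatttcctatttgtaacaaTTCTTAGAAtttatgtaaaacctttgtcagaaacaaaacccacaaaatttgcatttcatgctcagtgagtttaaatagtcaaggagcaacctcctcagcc
The window of Wap held 0 matches, as did those of Csn1s2a, Lalba and Cel, milk genes that also rose and whose windows are not shown. The match of Csn2 began 93 bases before the start and that of Csn1s1 began 100 bases before it. Among 10 of the 15 listed milk protein genes with a window, 3 held the motif, namely Csn2, Csn1s1 and Glycam1. Of these, Glycam1 was not called with all arrays. Over all genes, 7.02% of the 32851 windows held the motif, searched on both strands. A match is a description of these letters only.

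The caseins, which package calcium and phosphate in milk, gave the 3 largest log2 differences of this list, with Csn2, Csn1s1 and Csn1s2a. Csn2, beta-casein, was measured at 1198, 97.1 and 425 in ALP arrays, against 1.46, 1.12 and 3.12 in ML arrays. The lowest ALP array was far above the highest ML array, but the ALP arrays spread over an order of magnitude, and the fitted log2 difference was 7.74 ± 1.04 SE (adjusted p = 1.82e-04), with 6.88 without ALP replicate 1 and 8.69 without ALP replicate 2. Csn1s1, alpha-S1-casein, was measured at 562, 349 and 327 in ALP and 8.02, 7.50 and 24 in ML, a 35.4-fold difference (adjusted p = 2.99e-06). The ML values of both genes lay near the bottom of the scale, so their folds depend on the floor: with 16 added the folds were 22 and 14.7. Csn1s2a, another calcium-sensitive casein, had 1587, 834 and 651 in ALP and 66.9, 33 and 38.7 in ML (log2 difference 4.43). Lalba, the alpha-lactalbumin subunit of lactose synthase, had 369.7, 168 and 185 in ALP and 18.9, 18.2 and 25.9 in ML (log2 difference 3.45, adjusted p = 3.76e-04). In each of these genes ALP replicate 1 was the highest array and all ALP arrays were above all ML arrays. LP arrays averaged 60 for Csn2, 201 for Csn1s1, 623 for Csn1s2a and 136 for Lalba, between the means of ML and ALP.

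Genes of the milk fat globule and other secreted products followed the caseins. Xdh, xanthine oxidoreductase of the globule membrane, was measured at 4966, 4529 and 5427 in ALP, against 782, 609 and 927 in ML, a 6.51-fold difference (log2 2.70 ± 0.18 SE, adjusted p = 1.33e-06). Btn1a1, butyrophilin of the same membrane, was measured at 8974, 8207 and 7255 in ALP and 1851, 909.7 and 2014 in ML (5.40-fold, adjusted p = 0.00140). The 3 ALP arrays of both genes agreed closely and lay above the ML arrays. LP arrays averaged 4631 for Xdh and 7314 for Btn1a1, so both were bright there too. Cel, a bile salt-activated lipase of milk, had 1202, 351 and 203 in ALP and 59.6, 36.3 and 65.5 in ML (log2 difference 3.08, and 2.35 without ALP replicate 1). Csn3, kappa-casein, was bright in both populations, at 16255, 16339 and 15068 in ALP and 11367, 9673 and 11884 in ML, and differed by a log2 value of 0.54 (adjusted p = 0.00567). Muc15, a membrane mucin, and Mfge8, a globule protein that binds phosphatidylserine, had log2 differences of 1.36 and 0.67. Glycam1, a mucin-like whey protein, was measured at 6697, 27 and 1022 in ALP and 28.7, 35.1 and 29.8 in ML. Its ALP replicate 2 lay at the level of the ML arrays, and it passed only without that array (adjusted p = 0.0575 with all arrays).

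Luminal progenitor regulators and surface markers formed the second group. Itgb3 of this list encodes CD61, which the ML gate used. Of the other 19 tested, 14 rose in ALP and 5 did not pass, with a median log2 difference of 1.35, and 15 rose without ALP replicate 3. Hey1, a transcription factor downstream of Notch, was measured at 3469, 5419 and 6654 in ALP, against 516, 366 and 632 in ML. Every ALP array exceeded every ML array, by 10.2-fold (log2 difference 3.34 ± 0.29 SE, adjusted p = 8.85e-06). Elf5, an ETS factor that drives the alveolar lineage, was measured at 4608, 5677 and 4581 in ALP and 1484, 951 and 1462 in ML, a 3.87-fold difference (adjusted p = 0.0126). The groups of Elf5 did not overlap, and the call was lost only when ML replicate 2, its lowest array, was left out. Kit, the receptor of stem cell factor, had 4332, 4651 and 4414 in ALP and 1708, 1256 and 1783 in ML (log2 difference 1.51, adjusted p = 0.00333). Sox10, a factor tied to progenitor states of the mammary epithelium, had 6794, 8292 and 7802 in ALP and 3742, 2199 and 3107 in ML (log2 difference 1.37, adjusted p = 6.53e-05). For Kit and Sox10 the 3 ALP arrays were close together and apart from ML. LP arrays averaged 2815 for Hey1, 4722 for Elf5, 3979 for Kit and 8600 for Sox10, so these transcripts were not peculiar to ALP.

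Surface antigens used elsewhere to isolate luminal progenitors moved with these regulators. Cd14, a co-receptor for lipopolysaccharide, was measured at 10997, 11556 and 10675 in ALP and 4655, 3249 and 3897 in ML, a 2.84-fold difference (adjusted p = 0.00149). Cd55, a regulator of complement, was measured at 4937, 3633 and 3929.8 in ALP and 1068, 953 and 1351 in ML (log2 difference 1.89, adjusted p = 2.56e-04). Neither gene overlapped between the groups. Itgb3, which encodes CD61, had 3577, 2452 and 2896 in ALP, against 102.5, 95.5 and 145 in ML, and since ML cells were sorted as CD61-, this 26.2-fold difference is a property of the sort and is given without a test. Among the other regulators, Cebpb, Cebpd, Id2, Lmo4 and Tfap2c, transcription factors or cofactors of luminal growth, rose by log2 differences of 1.35, 1.05, 1.60, 1.44 and 0.79. The 5 members that did not pass were Ehf, Elf3, Itga2, Aldh1a3 and Ets1. Of these, Itga2, the CD49b integrin chain, was measured at 813, 519 and 244 in ALP and 350.3, 371 and 425 in ML, with ALP replicate 3 below the ML arrays and the other 2 ALP arrays above them, and it passed only without replicate 3 (log2 difference 0.77, adjusted p = 0.0104).

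**Figure D2:**
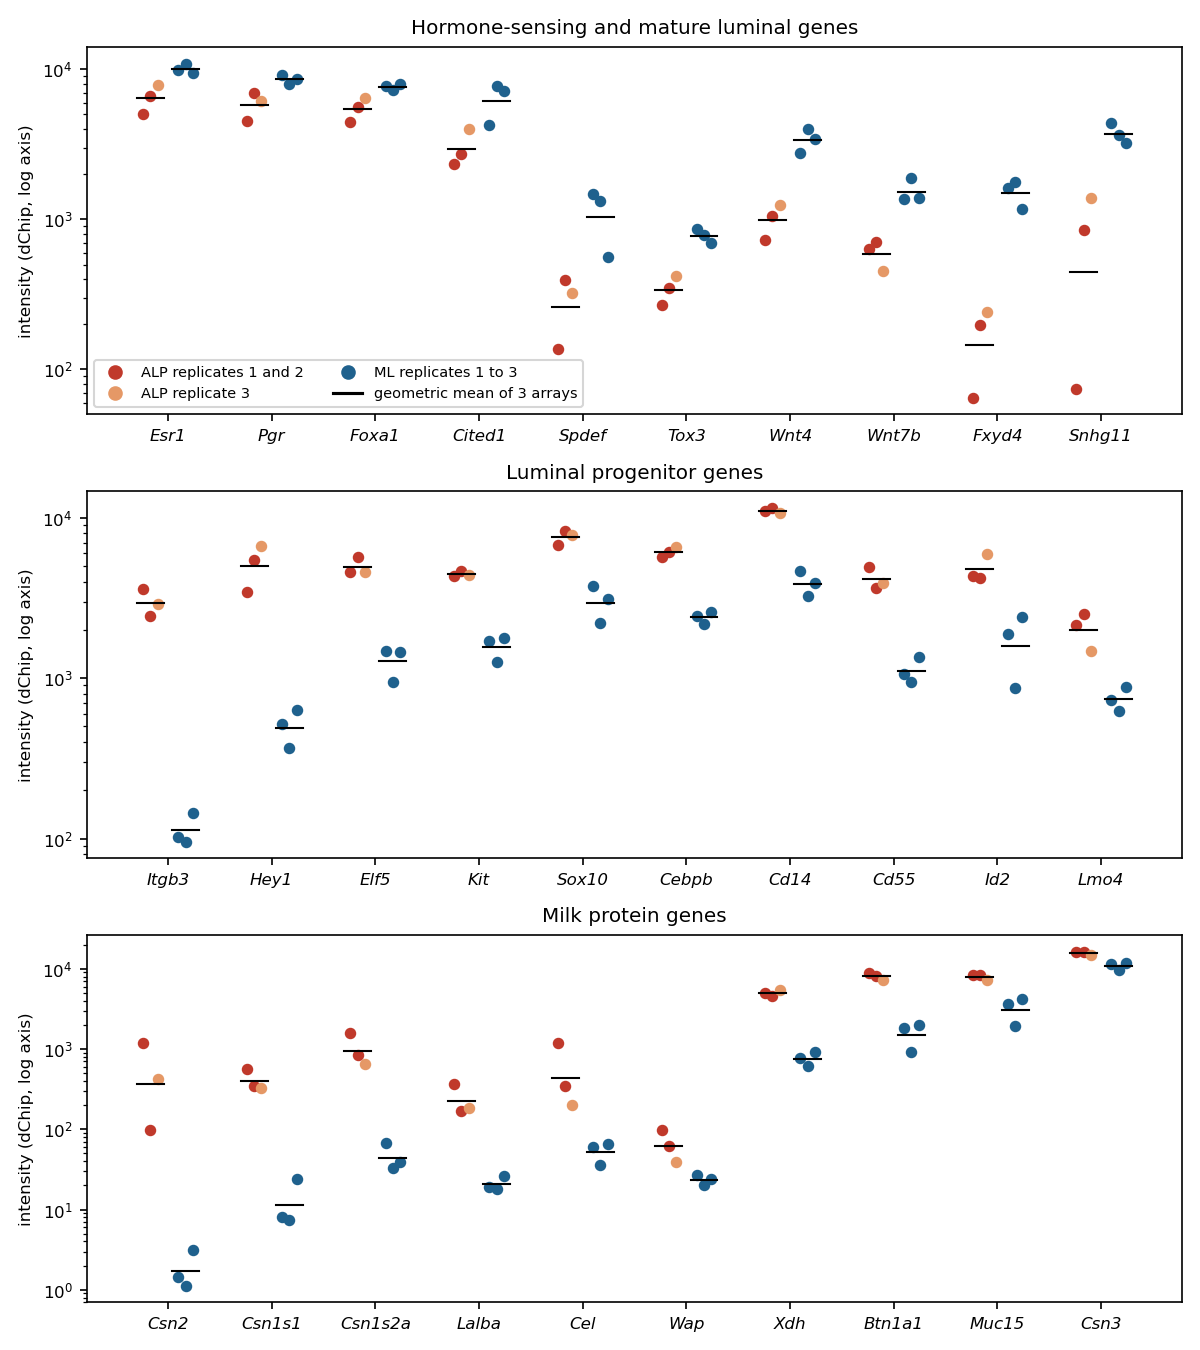
Intensity on a log axis for 10 hormone-sensing and mature luminal genes, 10 luminal progenitor genes and 10 milk protein genes in each ALP array (left of each pair) and ML array (right). Points are arrays, ALP replicate 3 has its own colour, and black lines are geometric means of 3 arrays. Milk and progenitor genes lie higher in ALP, with Xdh at 4966, 4529 and 5427 in ALP and 782, 609 and 927 in ML, whereas the ALP points of Esr1 lie below its ML points without passing the test.

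Of 14 hormone receptors and luminal regulators tested, 3 fell in ALP and the other 11 did not pass, a share near the 15.6% of all genes that fell. The median log2 difference of the list was -0.52. The count of genes that fell was 1 in a fit of the 6 arrays alone and without ALP replicate 1, ML replicate 1 or ML replicate 2. It was 5 without ALP replicate 2, 4 without ALP replicate 3 and 6 after quantile normalisation. Of all 12143 genes, 1409, 2530 and 3395 fell in these 3 fits, so the background moved too. Esr1, estrogen receptor alpha, was measured at 5033, 6649.6 and 7894 in ALP arrays, against 9915, 10900 and 9517 in ML arrays. All 3 ALP arrays were below all ML arrays, at 1.57-fold lower on average, but the difference did not pass the test (log2 -0.65 ± 0.28 SE, adjusted p = 0.0903). Pgr, the progesterone receptor, had 4535, 6951 and 6116 in ALP and 9109, 7953 and 8667 in ML (adjusted p = 0.269). Of the 3 tested probe sets of Pgr, 1 was called lower, and their log2 differences ran from -2.24 to -0.57. Foxa1, the pioneer factor of the estrogen receptor, had 4458, 5650.3 and 6457 in ALP and 7699.8, 7255 and 7948 in ML (adjusted p = 0.393). Cited1, a coactivator of the estrogen receptor, had 2352, 2722 and 4013 in ALP and 4258, 7747 and 7212 in ML (adjusted p = 0.240). In each of these 4 genes all ALP arrays lay below all ML arrays, as in 23.6% of all genes. Esr1, Foxa1 and Cited1 were called lower in a fit of the 6 arrays alone without ALP replicate 3, which was chosen after seeing the data. All 4 transcripts were far above the array median in every ALP array.

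The 3 members that fell were Spdef, Tox3 and Tbx3. Spdef, an ETS factor of secretory and luminal cells, was measured at 136, 396 and 322 in ALP, against 1482, 1324 and 566 in ML. The groups did not overlap, at 4.0-fold lower in ALP (log2 difference -2.0 ± 0.58 SE, adjusted p = 0.0183), and the call was lost without ALP replicate 1, ML replicate 1 or ML replicate 2. Tox3, a nuclear factor of estrogen-responsive cells, had 267, 349.7 and 416 in ALP and 861, 788 and 694 in ML (log2 difference -1.20, adjusted p = 0.0112). Tbx3, a T-box factor of hormone-sensing cells, had 2379, 3732 and 4113 in ALP and 4415, 4900.3 and 5031 in ML (log2 difference -0.53, adjusted p = 0.0432), and this call was lost when ALP replicate 1 or any of the ML arrays was left out. Without ALP replicate 1 the log2 difference of Tbx3 was -0.29. Gata3, a regulator of both luminal branches, had 5405, 6485 and 5365 in ALP and 5142, 4599 and 5250 in ML and did not pass (adjusted p = 0.120).

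Runx1, the transcription factor at the centre of the study, was measured at 3756, 3093 and 3276 in ALP, against 4392, 5385 and 4948 in ML. All ALP arrays were below all ML arrays, at 1.45-fold lower (log2 difference -0.54 ± 0.13 SE, adjusted p = 0.00877). Only 1 of its 5 tested probe sets was called lower, and the call was lost when the probe sets were averaged (log2 difference -0.13, adjusted p = 0.614). Over the 5 probe sets the log2 differences ran from -0.54 to 0.15, and the paper plotted Runx1 from a probe set other than the one used here. The limma call of this probe set held without ALP replicate 3 (adjusted p = 0.0200), in the 6 arrays alone (0.0370) and with 16 added (0.00834). In the fit of the 6 arrays alone without ALP replicate 3, chosen after seeing the data, Runx1 was not among the 3 members of the transcription factor panel called lower. Cbfb, the partner of the Runx proteins, had 5516, 5339 and 5607 in ALP and 5535, 4729 and 5607 in ML and did not pass (adjusted p = 0.754).

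Secreted signals of hormone-sensing cells split. Wnt4, through which progesterone acts on neighbouring cells, was measured at 733, 1049 and 1248 in ALP, against 2787, 4005 and 3412 in ML. It was 3.41-fold lower in ALP with no overlap (log2 difference -1.77 ± 0.37 SE, adjusted p = 0.00326). Wnt7b, another Wnt ligand, had 639, 703 and 453 in ALP and 1371, 1885 and 1396 in ML (log2 difference -1.38, adjusted p = 0.0126), a call lost without ML replicate 2, which left 1 lower gene. The other 3 called members of the list, out of 9 tested, were higher. Stc1, the glycoprotein hormone stanniocalcin 1, was measured at 719.9, 1025 and 2034 in ALP and 34.6, 43.1 and 116 in ML (20.6-fold, adjusted p = 5.95e-05). Rspo1 and Igf2, secreted factors that act through Wnt and insulin-like growth factor receptors, had log2 differences of 2.84 and 3.75. The difference of Igf2 was 2.86 without ALP replicate 3, its highest array, and that of Rspo1 was 2.22 without ML replicate 2 and 3.52 without ML replicate 3. Tnfsf11, the RANK ligand gene, was dim, at 42.6, 18 and 46.1 in ALP and 43.8, 119 and 58.2 in ML, and was not called (adjusted p = 0.107). Areg and Prlr were not analysed here because no probe set was assigned to either gene alone.

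Among 18 tested surface and effector genes of mature luminal cells, 4 fell, 1 rose and the median log2 difference was -0.63, against the 15.6% of all genes that fell. The genes that fell numbered 6 without ALP replicate 3, 2 without ALP replicate 1, ALP replicate 2 or ML replicate 3, and 1 without ML replicate 1 or 2. Of all 12143 genes, 2530 fell without ALP replicate 3. Fxyd4, a regulator of the sodium pump, was measured at 64.8, 197 and 240.3 in ALP, against 1619.9, 1769 and 1175 in ML (10.3-fold lower, adjusted p = 0.0296). The groups lay far apart with a wide spread in ALP, and leaving out ALP replicate 1 or 2 or any ML array ended the call. F2, the prothrombin gene, had 55, 45.3 and 122 in ALP and 487, 341 and 515 in ML (log2 difference -2.71, adjusted p = 0.00182), and Spef2, a protein of the sperm flagellum and cilia, had 43.4, 30.6 and 80.2 in ALP and 629.7, 284 and 577 in ML (log2 difference -3.31). The call of Spef2 was lost without any 1 array other than ALP replicate 3. Snhg11, a noncoding host of small nucleolar RNAs, had 74.5, 846 and 1397 in ALP and 4419.9, 3633 and 3215 in ML, with its lowest value in ALP replicate 1. Without that array the log2 difference of Snhg11 was -1.78, against -3.07 with it and -3.89 without ALP replicate 3, and the call was lost without ML replicate 1 or 2. Tspan8, a tetraspanin of the cell surface, was the member that rose (log2 difference 0.80, adjusted p = 0.00774).

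Further genes were named for the largest decreases in ALP among called genes that met the naming rule, which asks for a mean of at least 500 in ML. Spag6l, a protein of the central apparatus of the axoneme, was measured at 67.1, 77.9 and 105.1 in ALP, against 626, 625 and 700 in ML (7.93-fold lower, adjusted p = 5.83e-05). Dynlrb2, a dynein light chain, had 116, 60.1 and 60.6 in ALP and 474, 538 and 1098 in ML, Ttc25, a docking factor of outer dynein arms, had 73.8, 52.1 and 167 in ALP and 450.4, 596 and 793 in ML, and Ccdc113, a ciliary protein, had 84.3, 20.2 and 53.8 in ALP and 262, 541 and 979 in ML. In all 4 genes the ALP arrays lay below the ML arrays, and no list of ciliary genes was counted. Bmpr1b, a receptor for bone morphogenetic proteins, was measured at 118, 148 and 104 in ALP and 1668, 767 and 848 in ML (log2 difference -3.07, adjusted p = 0.00589). Trpm1, a cation channel, had 296, 146 and 370.4 in ALP and 1126, 2027 and 2822 in ML, and Adgra1, an adhesion G protein-coupled receptor, had 63.8, 118 and 67.9 in ALP and 429, 1171 and 1009 in ML. The remaining genes by this order were Dpep3, Rnf152 and Tmem238l, with log2 differences of -3.21, -2.80 and -2.95, and without ML replicate 1 that of Dpep3 was -2.50. The naming rule required that all of them keep their call without ALP replicate 3.

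Several signalling pathways that act on luminal cells had more members higher than lower. All genes tested did too, with 21.1% higher and 15.6% lower. Of 18 Notch pathway genes, 8 rose and 1 fell. Hey2 and Heyl, relatives of Hey1 and likewise Notch targets, rose with log2 differences of 2.64 and 2.71 (3.30 for Heyl without ALP replicate 2), and the Notch ligand gene Dll1 was measured at 306, 712 and 1228 in ALP and 47.6, 24.5 and 90.5 in ML (adjusted p = 1.84e-04). These 3 genes were dim in ML. Lfng, a glycosyltransferase that modifies Notch, fell, with 258, 577 and 1843 in ALP and 2537, 2326 and 1592 in ML (log2 difference -1.70, adjusted p = 0.0454), and its ALP replicate 3 reached the ML range. The call of Lfng was lost without any 1 array other than ALP replicate 3, and the log2 difference was -1.03 without ALP replicate 1 and -2.45 without ALP replicate 3. Jag1, a Notch ligand, was not called with all arrays and was lower without ALP replicate 3 (log2 difference -0.85, adjusted p = 0.00107).

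In the Wnt pathway, 10 of 27 genes rose and 1 fell, against 21.1% and 15.6% of all genes. Without ALP replicate 3, 9 rose and 2 fell, against 2457 and 2530 of all 12143 genes. Wnt5b, a ligand of the noncanonical branch, was measured at 6025, 4871 and 3296 in ALP, against 771, 743 and 977 in ML (5.57-fold higher, adjusted p = 1.01e-05). Lgr6, a receptor for R-spondins, was measured at 5371, 3482 and 3772 in ALP and 762, 514 and 1048 in ML (5.56-fold, adjusted p = 1.47e-05). ALP replicate 3 was not the highest ALP array in either gene. Sfrp2, a secreted Wnt antagonist that fibroblasts also make, had 3344, 3399 and 6901 in ALP and 692, 353 and 647 in ML (log2 difference 2.98, adjusted p = 2.48e-05). Fzd6, a Frizzled receptor, was the member that fell (log2 difference -0.35, adjusted p = 0.0230), a call lost without ALP replicate 2, ML replicate 1 or ML replicate 2. In a fit of the 6 arrays alone, 5 Wnt pathway genes and 4 Notch pathway genes rose, against 1595 of all 12143 genes.

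Of 11 ErbB receptor and ligand genes, 4 rose and 1 fell, against 21.1% and 15.6% of all genes. In a fit of the 6 arrays alone or without ML replicate 1, 2 fell. Egfr, the epidermal growth factor receptor, was measured at 5046, 3651 and 6311 in ALP, against 674, 611 and 1121 in ML (6.31-fold, adjusted p = 7.44e-06). Its ligand genes differed in direction. Ereg, epiregulin, had 846, 513 and 2649 in ALP and 114, 115 and 184 in ML, and Hbegf, heparin-binding EGF-like growth factor, had 8037, 6271 and 6413 in ALP and 2715, 3312 and 3946 in ML, both higher in ALP (adjusted p = 5.78e-04 and 1.11e-04). The log2 difference of Ereg was 2.97, and 2.30 without ALP replicate 3. Epgn, epigen, had 1738, 995 and 1224 in ALP, against 3456, 3502 and 3386 in ML, and fell (log2 difference -1.42, adjusted p = 6.62e-04). No ALP array of these genes entered the ML range.

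Prolactin, Stat5 and RANK signalling showed 4 of 13 genes higher and 9 that did not pass, against 21.1% of all genes higher. Cish, a Stat5 target that limits cytokine signalling, was measured at 2351, 2587 and 2872 in ALP and 1598, 954 and 1038 in ML (log2 difference 1.16, adjusted p = 4.54e-04). Tnfrsf11a, the RANK receptor gene, was dim, with 66.3, 104 and 205 in ALP and 27.6, 22.6 and 40.1 in ML (log2 difference 1.94, adjusted p = 0.00186). Ccnd2, a D-type cyclin, was measured at 966, 667 and 5608 in ALP and 32.9, 19.2 and 221 in ML, highest in ALP replicate 3 (log2 difference 4.89, and 3.95 without it). Without another single array the difference of Ccnd2 was 4.17 (ML replicate 2), 5.49 (ALP replicate 2) or 5.93 (ML replicate 3) where it moved by over 1.5-fold. Without replicate 3, Jak2, Socs3, Akt1 and Cav1 were called lower, so the list then held 4 higher and 4 lower genes. Of all 12143 genes, 2457 rose and 2530 fell in that fit. Stat5a had 5575, 6978 and 6709 in ALP and 7962, 7714 and 7756 in ML and was not called (adjusted p = 0.0782).

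Genes of innate defence and inflammatory signals were higher in ALP as well. Of 17 defence genes, 10 rose and 7 did not pass, with the same counts without ALP replicate 3. Lbp, the lipopolysaccharide-binding protein that works with Cd14, was measured at 2435, 1564 and 3052 in ALP, against 94, 70.7 and 84.2 in ML (27.5-fold, log2 4.78 ± 0.42 SE, adjusted p = 9.04e-06). Cp, ceruloplasmin, had 9608, 8930.5 and 8805 in ALP and 4491, 2901 and 3772 in ML (2.49-fold), and Lcn2, the siderophore-binding lipocalin 2, had 15630, 15429 and 14811 in ALP and 10500, 9825 and 11454 in ML (log2 difference 0.53). In all 3 genes every ALP array lay above every ML array. Tlr2, a receptor for bacterial lipoproteins, had log2 difference 1.62 (adjusted p = 3.67e-04), and Pigr, which carries antibodies into milk, had 445, 314 and 148 in ALP and 91.2, 78.6 and 127 in ML (adjusted p = 0.0103). Lyz1, a lysozyme that macrophages also make, had 868, 1038 and 13620 in ALP and 118, 150.3 and 186 in ML, so that replicate 3 stood apart (log2 difference 3.95, 2.67 without it and 4.66 without ALP replicate 1).

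Of 20 chemokine and cytokine genes, 14 rose and 6 did not pass, 13 rose without ALP replicate 3, and 10 rose and 1 fell in a fit of the 6 arrays alone. Il6, the cytokine interleukin 6, showed the largest log2 difference among the genes named by rule, with 3618, 3934 and 7917 in ALP arrays, against 26.7, 4.68 and 3.39 in ML arrays. The fitted difference was 9.33 ± 0.71 SE (adjusted p = 3.15e-06), and with 16 added to each intensity it was 7.55. Without ML replicate 1 the difference was 10.24. Ccl2, a chemokine that attracts monocytes, had 2575, 4818 and 12946 in ALP, against 16.2, 14.9 and 22.4 in ML. Ccl7, a related chemokine, had 1133, 1922 and 8092 in ALP, against 20.1, 17.8 and 28.5 in ML. Both were highest in ALP replicate 3 and stayed called without it (log2 differences of 7.65 and 6.09). Lif, the cytokine leukemia inhibitory factor, had 8698, 8562 and 6403 in ALP and 3455, 2325 and 3497 in ML, and Csf3, granulocyte colony-stimulating factor, had 5410.1, 4666 and 4471 in ALP and 1208, 855 and 1626 in ML. In Lif and Csf3 replicate 3 was the lowest ALP array, and both rose (adjusted p = 6.38e-04 and 2.00e-04). LP arrays averaged 1724 for Il6 and 9263 for the fibroblast marker Dpt, so both transcripts were also bright in another sorted population of the series.

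Metabolic genes of lactation differed little as groups. Of 21 milk lipid genes, 4 rose and 1 fell, against 21.1% and 15.6% of all genes, and 2 fell without ALP replicate 3. Plin2, a lipid droplet coat protein, was measured at 9799, 10982 and 10839 in ALP, against 5663, 4391 and 4194 in ML (2.24-fold, adjusted p = 2.84e-05). Cd36, a fatty acid transporter that endothelial cells and adipocytes also express, had 951, 1444 and 4144 in ALP and 15.1, 6.72 and 29.2 in ML (log2 difference 6.96, and 6.35 without ALP replicate 3). Acaca, acetyl-CoA carboxylase, had a log2 difference of 0.59 (adjusted p = 0.00424), and Dgat2, which makes triglycerides, fell, with 3848, 4043 and 4822 in ALP and 7403, 7616 and 9127 in ML (adjusted p = 0.0193). The call of Dgat2 was lost without ALP replicate 1 or 2 or ML replicate 3. Fasn, fatty acid synthase, had 2723, 2216 and 2475 in ALP and 2469, 2742 and 2464 in ML with overlapping groups. Of 18 cholesterol synthesis genes, 6 fell and 12 did not pass, against 15.6% of all genes that fell. The genes that fell numbered 3 without ALP replicate 1 or 3 or in a fit of the 6 arrays alone, and 2 without ALP replicate 2, ML replicate 1 or ML replicate 3. Fdft1, squalene synthase, was the clearest, with 3268, 3862 and 3179 in ALP and 5557, 5472 and 6582 in ML (log2 difference -0.77, adjusted p = 0.00348), and Lss, lanosterol synthase, had a log2 difference of -0.88 (adjusted p = 0.0107).

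Ion transport genes moved in both directions, 4 higher and 3 lower of 16, near the 21.1% and 15.6% of all genes. Without ALP replicate 1 or ML replicate 2 the counts were 2 higher and 1 lower, and without ALP replicate 2, 1 was lower. Clic6, a chloride intracellular channel protein, was measured at 7156, 6688 and 5638 in ALP, against 1455, 1248 and 2142 in ML (4.11-fold, adjusted p = 9.95e-04). Kcnn4, a calcium-activated potassium channel, had 7912, 8451 and 5298 in ALP and 2919, 2446 and 3789 in ML (log2 difference 1.24). Scnn1a, the alpha subunit of the epithelial sodium channel, was measured at 1037, 1498 and 1294 in ALP and 2196, 3045 and 2918 in ML and fell (log2 difference -1.09, adjusted p = 0.00894). No arrays of these 3 genes overlapped between the groups.

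Within the luminal identity list itself, 2 genes rose and 1 fell of 17, leaving aside Cd24a, which encodes an antigen of the ML gate. Of all genes, 21.1% rose and 15.6% fell. Muc1, an apical mucin, was measured at 7777, 5969 and 5275 in ALP, against 1976, 2405 and 3032 in ML (2.57-fold, adjusted p = 3.64e-04), and Krt23, an acidic keratin, had 761, 891 and 1055 in ALP and 203, 199 and 303 in ML (log2 difference 1.96, adjusted p = 0.00107). Esrp2, a splicing factor of epithelia, had 3553, 3336 and 3849 in ALP and 4565, 4531 and 3849 in ML (log2 difference -0.27, adjusted p = 0.0414). Cd24a had 14105, 15444 and 14088 in ALP and 16321, 16769 and 17509 in ML, given without a test because ML cells were sorted as CD24hi. The call of Esrp2 was lost without ALP replicate 1 or 2 or ML replicate 1 or 2.

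Basal and myoepithelial markers were higher in ALP, 18 of 19 with all arrays, 15 without ALP replicate 3 and 9 in a fit of the 6 arrays alone. Krt5, the keratin of basal cells, was measured at 364, 317 and 2441 in ALP, against 109, 88 and 384 in ML. Krt14, its partner keratin, had 1954, 1342 and 6459 in ALP and 553, 388 and 1737 in ML, so ALP replicates 1 and 2 of both keratins lay within or near the ML range and replicate 3 was well above it. Krt5 had a log2 difference of 2.09 with all arrays and 1.14 without replicate 3, and Krt14 had 1.84 and 1.17. Without replicate 3 neither passed (adjusted p = 0.0754 and 0.0743), and Trp63, the p63 factor of basal cells, did not pass either (adjusted p = 0.146). All 3 calls were also lost without ML replicate 2, and those of the keratins without ML replicate 1, and without ML replicate 3 the differences were 2.74 for Krt5 and 2.47 for Krt14. The contractile genes Acta2 and Mylk, shared by myoepithelial cells, pericytes and smooth muscle, passed with and without replicate 3. Acta2 was measured at 3931, 3306 and 12157 in ALP, against 262, 271 and 449 in ML (log2 difference 4.09), and Mylk at 2901, 1863 and 7986 in ALP, against 149, 197 and 305 in ML (log2 difference 4.08, and 3.48 without ALP replicate 3). Igfbp5, an insulin-like growth factor binding protein, had 13676, 13927 and 13322 in ALP and 6163, 4961 and 7009.7 in ML, with no array apart from its group. The pericyte and fibroblast markers moved with this list, and their part in the result was not tested.

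Stromal transcripts were among the largest differences of the comparison. Of the 12 genes named for the largest increases, 4 were fibroblast markers (Dpt, Ogn, Lum and Mmp2), 1 was a pericyte marker (Abcc9) and 1 was an adipocyte marker (Fabp4). Of 21 fibroblast markers, 20 rose, and the median log2 difference was 7.17 with all arrays and 6.25 without ALP replicate 3. Dpt, dermatopontin of the extracellular matrix, was measured at 8617, 8275 and 13416 in ALP, against 30.7, 14.9 and 15.8 in ML (log2 difference 8.99 ± 0.43 SE, adjusted p = 1.48e-07). Col3a1, a fibrillar collagen, had 7496, 8522 and 14494 in ALP and 45.2, 36 and 54.7 in ML, and Lum, the proteoglycan lumican, had 4144, 4301 and 7341 in ALP and 20.01, 13.6 and 17.1 in ML. In each, all 3 ALP arrays lay far above the median of their array and all ML arrays below it. LP arrays averaged 9263 for Dpt, 7303 for Col3a1 and 3214 for Lum, so these transcripts were bright there too. Col6a3, the member that did not pass, had 2849, 4677 and 7734 in ALP and 5580.3, 1980.3 and 3953 in ML. Aspn, Ogn and Mmp2, matrix proteoglycans and a matrix metalloproteinase, and Twist2, a mesenchymal transcription factor, had log2 differences of 8.63, 8.51, 8.20 and 8.32. Ms4a4d, also among the 12 genes named for the largest increases, had a log2 difference of 8.33, and 7.75 without ALP replicate 3. That of Twist2 was 8.99 without ALP replicate 1.

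Vascular markers followed. Of 8 adipocyte markers with a probe set, 3 were bright enough for the test. Of these 1 rose, Fabp4, whereas Pparg and Lipe did not pass (log2 difference of Lipe -0.59). Of 17 endothelial markers, 13 were bright enough for the test. Of these, 10 rose with and without ALP replicate 3, and 1, Eng, fell without it. Tek, an angiopoietin receptor, was measured at 398, 717 and 4382 in ALP, against 11.9, 18.9 and 22.9 in ML (log2 difference 5.96, adjusted p = 6.08e-05, with 4.95 without ALP replicate 3 and 6.68 without ALP replicate 1), and Cldn5, the tight junction claudin of endothelium, had 469, 1092 and 4103 in ALP and 37.7, 33 and 28.6 in ML. Selp, the adhesion molecule P-selectin, had 5289, 9728 and 11476 in ALP and 27.8, 24.4 and 17 in ML (log2 difference 8.54, adjusted p = 3.96e-04). ALP replicate 3 was the highest array in Tek, Cldn5 and Selp, and the lowest ALP array was far above every ML array. Of 8 pericyte markers, 3 passed the filter on dim probe sets, and all 3 rose. A marker dim in ML passes that filter only if it is bright in other populations, so this count was partly set by the filter. Abcc9, a potassium channel subunit, had 1277, 1491 and 3676 in ALP and 13.5, 3.39 and 4.37 in ML. Fabp4, a fatty acid binding protein of adipocytes and capillary endothelium, was measured at 6074, 9633 and 13864 in ALP and 29.4, 24.7 and 49.6 in ML, whereas Pparg, the adipocyte regulator, had 315, 281 and 885 in ALP and 293, 366 and 266 in ML and did not pass (adjusted p = 0.309).

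Immune transcripts were high mainly in ALP replicate 3. C1qb, a complement subunit made by macrophages, was measured at 365, 1117 and 13211 in ALP, against 61.4, 112 and 77.5 in ML. Lyz2, a lysozyme of myeloid cells, had 404, 536 and 10979 in ALP and 70.8, 93 and 106 in ML, and Laptm5, a lysosomal protein of leukocytes, had 158, 360.2 and 9965 in ALP and 39.4, 34.3 and 40.04 in ML. Replicate 3 exceeded the other ALP arrays by an order of magnitude in each, while those 2 arrays still lay above ML. Of 15 myeloid markers, 8 passed the filter on dim probe sets, and 7 of these rose (median log2 difference 3.78). Without replicate 3, 7 rose (median 2.00), and 4 rose without ML replicate 1. As for the pericyte markers, the filter partly set this count. In a fit of the 6 arrays alone these calls were lost (adjusted p = 0.0624 for C1qb). The MHC class II gene Cd74, the invariant chain, had 1278, 1501 and 12999 in ALP and 157, 297 and 228 in ML (log2 difference 3.73, 2.66 without replicate 3 and 4.33 without replicate 1). H2-DMa, which loads peptide on class II molecules, had 344, 208 and 3044 in ALP and 882, 877 and 985 in ML. It was not called with all arrays and was lower in ALP without replicate 3 (log2 difference -1.77, adjusted p = 1.60e-04).

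The balance of interferon response and class I presentation genes changed with the arrays used. With all arrays, 5 of 23 rose and 3 fell, near the 21.1% and 15.6% of all genes. Without ALP replicate 3, 5 rose and 8 fell, against 2457 and 2530 of all 12143 genes. None fell without ALP replicate 1, ALP replicate 2, ML replicate 2 or ML replicate 3, where 6, 5, 3 and 4 rose, and without ML replicate 1, 3 rose and 2 fell. In a fit of the 6 arrays alone 1 rose and none fell. Stat2, a factor of interferon signalling, was measured at 134, 244 and 674 in ALP, against 721, 923 and 836 in ML (log2 difference -1.55, adjusted p = 0.0255), with -2.18 without ALP replicate 3, -1.02 and no call without ALP replicate 1, and no call without ALP replicate 2 or ML replicate 2 or 3. Usp18, which limits interferon signalling, had 639, 1100 and 2577 in ALP and 2730.2, 3761 and 2817 in ML and passed only without replicate 3 (log2 difference -1.87, adjusted p = 0.0179). In both genes ALP replicate 3 was the ALP array nearest to ML. Ifit2, an antiviral protein, went the other way, at 229.9, 169 and 1134 in ALP and 20.1, 22.8 and 23.6 in ML (log2 difference 4.0, adjusted p = 1.40e-04, and 3.15 without ALP replicate 3). Psmb8, an immunoproteasome subunit, had 2658, 2804 and 3713 in ALP and 4178, 4614 and 4310.1 in ML (log2 difference -0.53, adjusted p = 0.0242), and lost its call without the same arrays as Stat2.

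**Figure D3:**
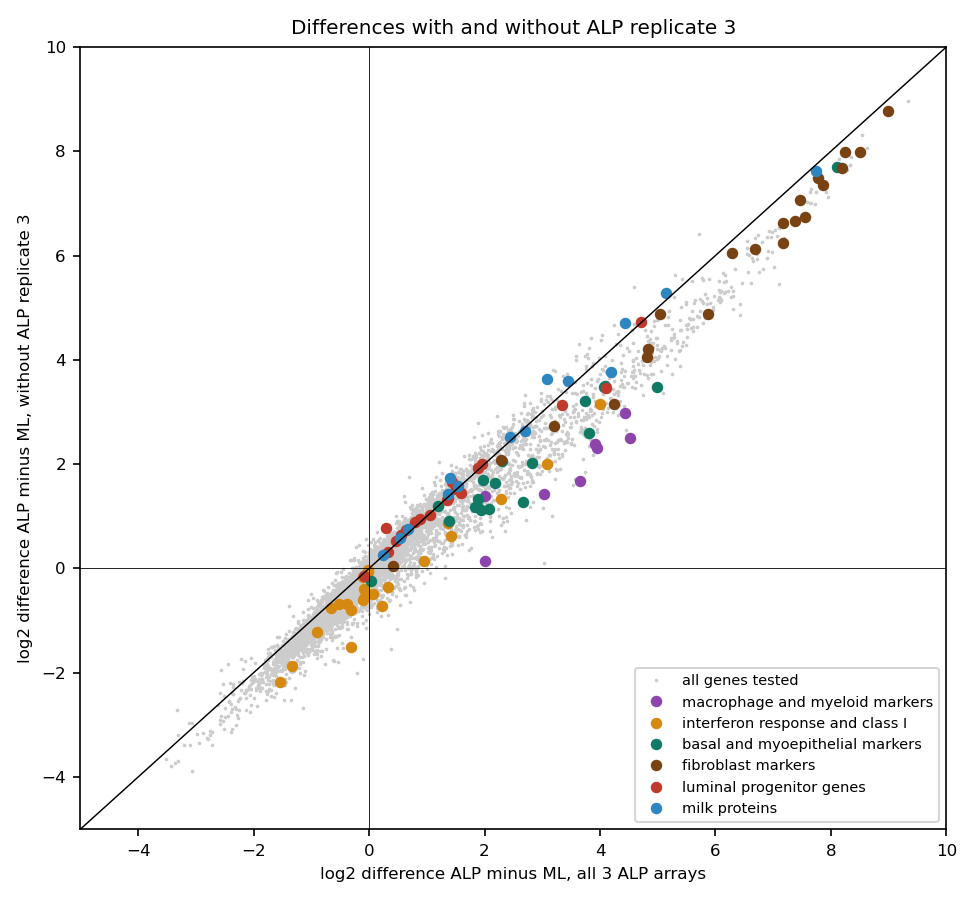
Log2 difference of ALP minus ML with all 3 ALP arrays (horizontal axis) against the same difference without ALP replicate 3 (vertical axis), 1 point per gene, with members of 6 gene lists coloured over all 12143 genes in grey and a line of equality. Milk protein and luminal progenitor genes lie on both sides of the line, with list medians of 2.57 and 1.36 with all arrays and 2.58 and 1.33 without replicate 3, and macrophage markers lie below it, with medians of 3.78 and 2.

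Proliferation and handling genes complete the account. Of 29 cell cycle genes, 3 rose and 2 fell, against 21.1% and 15.6% of all genes. Without ML replicate 2, 1 rose, none fell without ALP replicate 1, ML replicate 2 or ML replicate 3, and 1 fell without ALP replicate 3. Pcna, the DNA polymerase clamp, was measured at 7911, 6949.8 and 8298 in ALP and 5720, 5233 and 5569.8 in ML (log2 difference 0.48, adjusted p = 9.93e-04), whereas Mki67, the Ki-67 antigen of cycling cells, had 66.4, 877 and 478 in ALP and 329, 107 and 459.9 in ML with overlapping groups. The lowest Mki67 array was ALP replicate 1, and the ML arrays also spread widely. Aurka, a mitotic kinase, had 415, 743 and 1004 in ALP and 1352, 2252 and 1901 in ML (log2 difference -1.41, adjusted p = 0.0255), a call lost without ALP replicate 1, ML replicate 2 or ML replicate 3. Of 23 genes that respond to tissue dissociation, 17 rose and 6 did not pass, 13 rose without ALP replicate 3, 10 in a fit of the 6 arrays alone, and the median log2 difference was 0.51. Nr4a1, an immediate early nuclear receptor, was measured at 2377, 5162 and 6189 in ALP, against 520.5, 488 and 664 in ML (log2 difference 2.94, adjusted p = 1.73e-05), and Hspa1a, an inducible heat shock protein, had 3267, 7274 and 7272 in ALP and 1219.8, 970.3 and 1041 in ML. Hprt, a housekeeping gene, had 4298, 4719.7 and 4938 in ALP and 4665, 4896 and 5222 in ML with overlapping groups (adjusted p = 0.437).

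**Figure D4:**
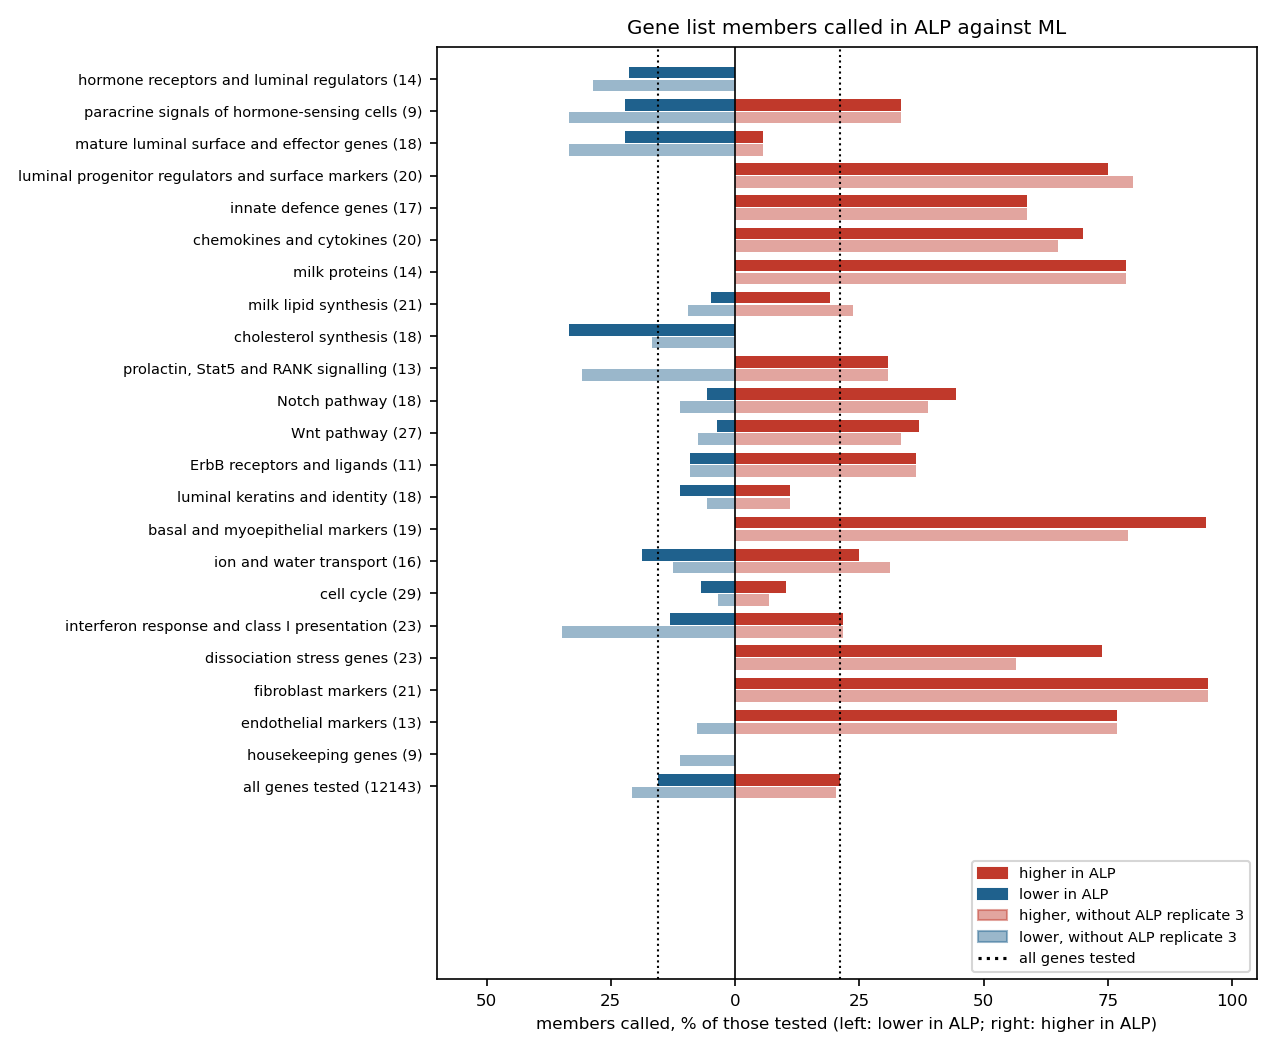
Share of tested members of each gene list that were higher (right of 0) or lower (left of 0) in ALP, in percent, with the number of genes tested in parentheses. Solid bars use all arrays, pale bars leave out ALP replicate 3, and dotted lines mark 21.1% higher and 15.6% lower over all 12143 genes. Milk proteins (11 of 14 higher), luminal progenitor genes (15 of 20, Itgb3 of the ML gate among them) and fibroblast markers (20 of 21) reach far past the dotted line with and without replicate 3.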

How the data were processed

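RNA was isolated by the authors with the RNeasy kit, amplified with the NuGEN Ovation V2 system and hybridised to Mouse Genome 430 2.0 arrays (Affymetrix), 1 array per sample. The deposited values were linear intensities per probe set, normalised by the authors with dChip, and its version and model are not stated in the sources used. The number of arrays limits the precision. Values below 1 were set to 1 before log2. Of 45101 probe sets, 34945 carried exactly 1 gene symbol (932 carried several and 9160 none). Probe sets above the median of their array in at least 3 of 15 arrays were kept, and the brightest probe set of each gene was used, which left 12143 of 18193 genes. One mean per population was fitted to all 15 arrays (R 4.3.3, limma 3.58.1, lmFit and eBayes, two-sided, Benjamini-Hochberg). The fit was also run on simulated data. Each simulated gene had the same spread in all arrays, so that run does not cover arrays of unequal spread. Fold changes are antilogs of log2 differences of ALP minus ML, with standard errors (SE) on the log2 scale.

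Named genes were the 12 with the largest difference in each direction among called genes without overlap, with a mean of at least 500 in the higher group and a call that held without ALP replicate 3 (unnamed clones were skipped), together with up to 4 members per list by the moderated statistic, the transcription factor panel, the sorting proteins and Wap. Other genes named were picked from the lists after their values were seen, and not each named gene is described. The members and lists were chosen with earlier results of these data known. Alternatives were 16 added to each intensity, no filter or a filter on the 6 arrays, quantile or median scaling, the 6 arrays alone, array weights, a replicate block, the mean of a gene's probe sets and leaving out each array. A fit of the 6 arrays without ALP replicate 3 was chosen after seeing the data.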

Additional observations from a re-analysis of the deposited data

How the results depend on the processing

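The 4452 calls became 2739 in a fit of the 6 arrays alone (1595 higher and 1144 lower in ALP) and 3159 to 4987 when 1 array was left out. Genes lower in ALP numbered 3395 after quantile normalisation, 3406 after median centring and 3107 with array weights, against 1892, and 1130 to 2530 when 1 array was left out, with the lowest counts without ML replicate 2 and ALP replicate 1 (1146). At 2-fold or more, 584 lower genes became 1112 after quantile normalisation, 889 in the 6 arrays without ALP replicate 3, a fit chosen after seeing the data, and 339 (without ALP replicate 1) to 907 (without ALP replicate 3) when 1 array was left out. The cause was not tested. The replicate numbers do not pair the samples, since deviations of same-numbered arrays correlated at -0.229, 0.061 and 0.011. With the number as a replicate block, 4082 genes were called, and 146 of the 152 called genes among 187 named ones stayed called. Of these 152, 152 stayed called with 16 added, 150 after quantile normalisation, 151 after median centring, 119 in the 6 arrays alone, 146 without ALP replicate 3 and 130 to 142 without any other array. No named gene that was called changed sign.

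Of the genes not called in the report, these changed sign under an alternative. When 1 array was left out, the log2 differences ranged from -0.022 to 0.101 for Cbfb, -0.017 to 0.043 for Epcam, -0.51 to 1.36 for Mki67, -0.038 to 0.790 for Pparg, -0.098 to 0.771 for Itga2, -0.0025 to 0.772 for Col6a3, -0.126 to 0.023 for Fasn, -1.77 to 0.16 for H2-DMa and -1.12 to 0.088 for Eng. After median centring Cbfb had -0.080, Epcam -0.129 and Pgk1 -0.036, after quantile normalisation Mki67 had -0.071 and Itga2 -0.0344, and with array weights Pparg had -0.010 and Tbp -0.00496. In the 6 arrays without ALP replicate 3, Mki67 had -0.068 and Pparg -0.038. Transcripts near the bottom of the scale in ML, such as Csn2 and Il6, have folds that depend on the floor.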

Other observations

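Genes left out of the test as too dim add to the picture of ALP replicate 3. Of 6050 such genes, 180 reached an intensity of 500 in ALP replicate 3, against 1 and 0 in ALP replicates 1 and 2 and 6, 1 and 1 in the ML arrays. Adgre1, Cd3e and Ptprc were among them.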
